A study of Mus musculus with 12 samples.

Results

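Heat shock chaperones of the cytosol and mitochondria were examined in hernia-associated fibroblasts (HAFs), using a list of 37 mouse genes that spans HSP90, HSP70 and HSP110, small heat shock proteins, the mitochondrial chaperonin, their co-chaperones and the heat shock transcription factors. The members were taken by gene symbol, 36 of the 37 were among the 13233 genes tested, and Hspa14 was not analysed here. HAFs are primary fibroblasts grown from the lower abdominal muscle (LAM) of Arom hum mice, which carry the human gene for aromatase, the enzyme that makes estrogen from androgen. All 12 samples came from this genotype, so no wild-type fibroblast was compared, and all were starved of serum before treatment and then kept for 48 h in medium with little, hormone-stripped serum. The 4 groups of 3 samples received vehicle (ethanol and DMSO), 10 nM estradiol (E2), the same dose of E2 together with 100 nM fulvestrant, or that dose of fulvestrant without E2. Fulvestrant is an antagonist that blocks the estrogen receptor and leads to its degradation. Replicates carry the numbers 1, 2 and 3 in every group. The labels do not say what a number stands for or whether the samples came from separate animals, so the p-values measure the spread between these samples, which may in part be technical.

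Molecular chaperones bind unfolded or partly folded proteins. HSP70 proteins take hold of exposed hydrophobic stretches in a cycle driven by ATP, J-domain proteins bring them their substrates, and HSP110 and BAG proteins release the bound nucleotide. HSP90 acts later in folding, with co-chaperones such as Stip1, Ahsa1 and Fkbp4, and keeps steroid hormone receptors, the estrogen receptor among them, ready to bind ligand. Heat shock factor 1, encoded by Hsf1, is the transcription factor that switches on many of these genes when unfolded proteins accumulate. It binds arrays of the pentamer nGAAn in alternating orientation, called heat shock elements.

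Because the members are known for this element, the promoter windows of the RefSeq table (build GRCm38.p6, 250 bases before to 50 bases after each annotated start) were searched on both strands for the inverted pair GAANNTTC. A window was given for 28 of the 37 listed genes. The pair was present in 14 of the 28 (50%), against 6.93% of the 9439 tested genes with a window and 7.86% of all 32851 windows. A longer array, the pair followed after 2 further bases by another GAA, lay in 5 of the 28 (Chordc1, Dnajb6, Hspd1, Hspe1 and Hsph1) and in 0.551% of the tested genes. The full estrogen response element, GGTCA and TGACC set 3 bases apart, lay in 0 of the 28 members and in 0.0106% of the tested genes. These are matches of letters and not measured binding sites. Hspd1 and Hspe1 hold the same site, and the windows of Hspa1a and Hspa1b are near copies. The genes counted are thus not all separate promoters.

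The 250 bases before the start of Hspa1a and Hspa1b are printed because these inducible HSP70 genes had the largest changes in what follows. They lie on the minus strand of chromosome 17, at chr17:34972157-34972406 for Hspa1a and chr17:34959239-34959488 for Hspa1b (GRCm38.p6), and are identical at 247 of the 250 positions. Capitals mark GAANNTTC, whose first base is 104 bases before the start in both.
Hspa1a: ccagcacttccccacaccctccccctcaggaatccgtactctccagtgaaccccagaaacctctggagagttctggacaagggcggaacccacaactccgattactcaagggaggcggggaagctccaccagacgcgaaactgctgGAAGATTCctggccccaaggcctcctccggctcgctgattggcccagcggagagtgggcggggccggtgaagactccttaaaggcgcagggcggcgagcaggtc
Hspa1b: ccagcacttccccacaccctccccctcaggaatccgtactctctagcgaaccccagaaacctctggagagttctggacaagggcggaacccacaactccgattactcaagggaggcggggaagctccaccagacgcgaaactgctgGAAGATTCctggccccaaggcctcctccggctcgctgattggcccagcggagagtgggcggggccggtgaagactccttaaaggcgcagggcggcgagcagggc

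Shorter stretches of up to 28 bases around the match are printed for Hspb1, Hspb8, Bag3, Hsph1, Hspd1 and Hspe1. Hspb1 and Hspb8 are small heat shock protein genes, and Hspd1 and Hspe1 are the chaperonin genes. Those printed hold the match and were called with fulvestrant, except Hsph1, which is given for its difference between replicates. Hspa4, Hspa4l, Dnajb4 and Stip1, also called with fulvestrant, and Dnajb1 have windows without the match. Capitals again mark GAANNTTC, and each is read 5′ to 3′ on the strand of its gene (GRCm38.p6). Hspd1 and Hspe1 start head to head, and their match is the same site, chr1:55088054-55088081, read from opposite strands. The sites of Hspb1 are at chr5:135887792-135887819 and chr5:135887812-135887839 on the plus strand, 117 and 97 bases before the start. Those of Bag3 (chr7:128523615-128523632, plus strand), Hspb8 (chr5:116422845-116422872, minus strand) and Hsph1 (chr5:149636278-149636305, minus strand) have their capitals in the 50 bases after the start, and the first bases printed for Hspb8 lie before it.
Hspb1, upstream site: ttcaacaagaGAAGTTTCcagatggggg
Hspb1, site nearer the start: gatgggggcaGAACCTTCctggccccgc
Hspb8: gaagccaggaGAAGTTTCtaggctcgcg
Bag3: gatgggaccaGAAGTTTC
Hsph1: gcagattctgGAAAGTTCtcctcagtag
Hspd1: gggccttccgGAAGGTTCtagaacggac
Hspe1: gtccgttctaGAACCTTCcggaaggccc

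RNA was measured as normalized counts per gene. These are reads divided by a factor for each sample that the authors set by the median of ratios. The reads on all 13233 genes tested came to 18827792 to 44040507 per sample (median 31703872.5). All 8 fibroblast markers were present, and the defining muscle genes Pax7, Myod1, Acta1 and Ckm were not among the genes tested. The sum of the 8 fibroblast markers was 440865 to 494077 with vehicle, 507554 to 566122 with E2, 362990 to 376717 with E2 plus fulvestrant and 330647 to 394859 with fulvestrant. The sum, mostly collagen, hides shifts between replicates: with vehicle, in replicates 1, 2 and 3, Thy1 read 78.3, 562 and 524, Lum 1064, 3337 and 3410.0 and Dcn 32211, 107287 and 102207, whereas Col1a1 read 95391, 46852 and 46627 and Col1a2 243523, 118816 and 118385. These markers thus moved with the replicate difference described next, and their part in it was not tested. Of the markers of other cell types, 3 of 5 for pericytes and smooth muscle were present, with a sum of 3316 to 4392 in replicate 1 and 1977 to 2635 in replicates 2 and 3, and 1 of 5 for endothelium (Tek), with 58.4 to 83.7 in replicate 1 and 157 to 277 in replicates 2 and 3. Of 13 muscle markers, Tnnt3 was present, at 46.1 to 215. For adipocytes and for mesothelium and epithelium 0 markers were present, and for macrophages 2 of 5 (Cd68 and Cd14), with a sum of 106 to 210. The macrophage sum was higher with fulvestrant in all 6 pairs of the same number, at 148, 165 and 150.0 with vehicle against 179, 194 and 201 with fulvestrant and at 138, 106 and 138 with E2 against 191, 167 and 210 with E2 plus fulvestrant. In such bulk samples fewer cells of a type and less RNA per cell cannot be told apart, and the part of other cells in the results was not tested. Pgr, the progesterone receptor gene and a known estrogen target, read 25.4, 85.3 and 104 with vehicle, 145, 268 and 304 with E2, 14.8, 28.4 and 27 with E2 plus fulvestrant and 13, 21.5 and 16.2 with fulvestrant. It was higher with E2 than with vehicle (log2 fold change 1.88 ± 0.27 (adjusted p = 0.0343)) and lower with E2 plus fulvestrant than with E2 (-3.28 ± 0.27 (adjusted p = 4.69e-05)). The call against vehicle was lost without replicate 2 and without replicate 3, where 0 of all genes were called by limma in that comparison. In every group replicate 1 stood apart from replicates 2 and 3. After removal of the group means, the correlation across genes between samples numbered 2 and 3 was 0.63 to 0.79, and that between number 1 and number 2 or 3 was -0.86 to -0.71. Replicates 2 and 3 differed by more than the counting error, with a chi-square per degree of freedom of 4.30 to 23.5 in the 4 groups, which does not show whether they came from separate cultures.

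Most chaperones differed more between replicate 1 and the other replicates than between treatments, so this difference is described first. It was estimated in the same fit, a comparison chosen after the data had been seen. In replicates 2 and 3, 28 members were higher than in replicate 1 and 1 was lower (limma adjusted p under 0.05 and fold over 1.2), with a median log2 difference of 0.72 over the 36 members. Of all genes tested, 27.0% were called higher and 25.4% lower, with a median of 0.02. All 3 numbers were present in each treatment group, so this difference is balanced over the groups, but it sets a single number against 2.

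Hspa1a and Hspa1b, which encode the stress-inducible HSP70, differed most. Hspa1a (chr17:34969190-34972156, minus strand, GRCm38, a gene without introns) read 115, 5090.1 and 4542 with vehicle, 146, 4932 and 4533 with E2, 226, 9326 and 9347 with E2 plus fulvestrant and 167, 10258 and 10592 with fulvestrant, in the order of replicates 1, 2 and 3 here and in all such lists. Hspa1b (chr17:34956436-34959238, minus strand, also intronless) read 283, 9669.6 and 8706 with vehicle, 382, 9270.1 and 9010.4 with E2, 602, 17839 and 18247 with E2 plus fulvestrant and 449.7, 19120 and 19924 with fulvestrant. In each of the 4 groups replicate 1 was the low sample and replicates 2 and 3 were close together, with a log2 difference of 5.43 ± 0.11 (SE) for Hspa1a and 4.98 ± 0.10 for Hspa1b. Their transcripts are near copies: 56.5% of the 100-base windows of Hspa1a and 49.9% of those of Hspa1b occur in transcripts of other genes, chiefly of each other. Reads that fit both may not have been counted for either, or counted for the wrong copy, so the individual levels are uncertain.

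Dnajb1, the J-domain protein that works with inducible HSP70, came next at 3.0 ± 0.12 (adjusted p = 6.19e-09) on the log2 scale, followed by Hspb1 at 1.93, Hsp90aa1 at 1.91, Hsph1 at 1.83, Hspa8 at 1.55 and Hspd1 at 1.51. Several members differed little. The mitochondrial HSP70 gene Hspa9 differed by 0.14, the mitochondrial HSP90 gene Trap1 by 0.21, Dnajb6 by 0.032 and the transcription factor gene Hsf1 by 0.071, and none of these passed the fold threshold. Hspb6, a small heat shock protein of muscle, was the exception in sign, with 213 to 271 normalized counts in replicate 1 and 79.7 to 138 in replicates 2 and 3 (-1.0 ± 0.12 (adjusted p = 2.59e-05)). Immediate early genes, which respond within minutes to stress, serum or handling, moved with the same samples, 15 of the 16 listed being higher in replicates 2 and 3 and 1 lower. Atf3 read 13.2, 2799.5 and 2418 with vehicle, 15.8, 2699 and 2658 with E2, 57.1, 4244 and 4459 with E2 plus fulvestrant and 38, 4461 and 4716 with fulvestrant. Endoplasmic reticulum (ER) chaperones did not share the direction, with 0 of 18 higher and 7 lower, among them Hsp90b1 (-0.27 ± 0.05 (adjusted p = 0.0006)). What the replicate number stands for, and its part in these levels, was not tested.

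**Figure D1:**
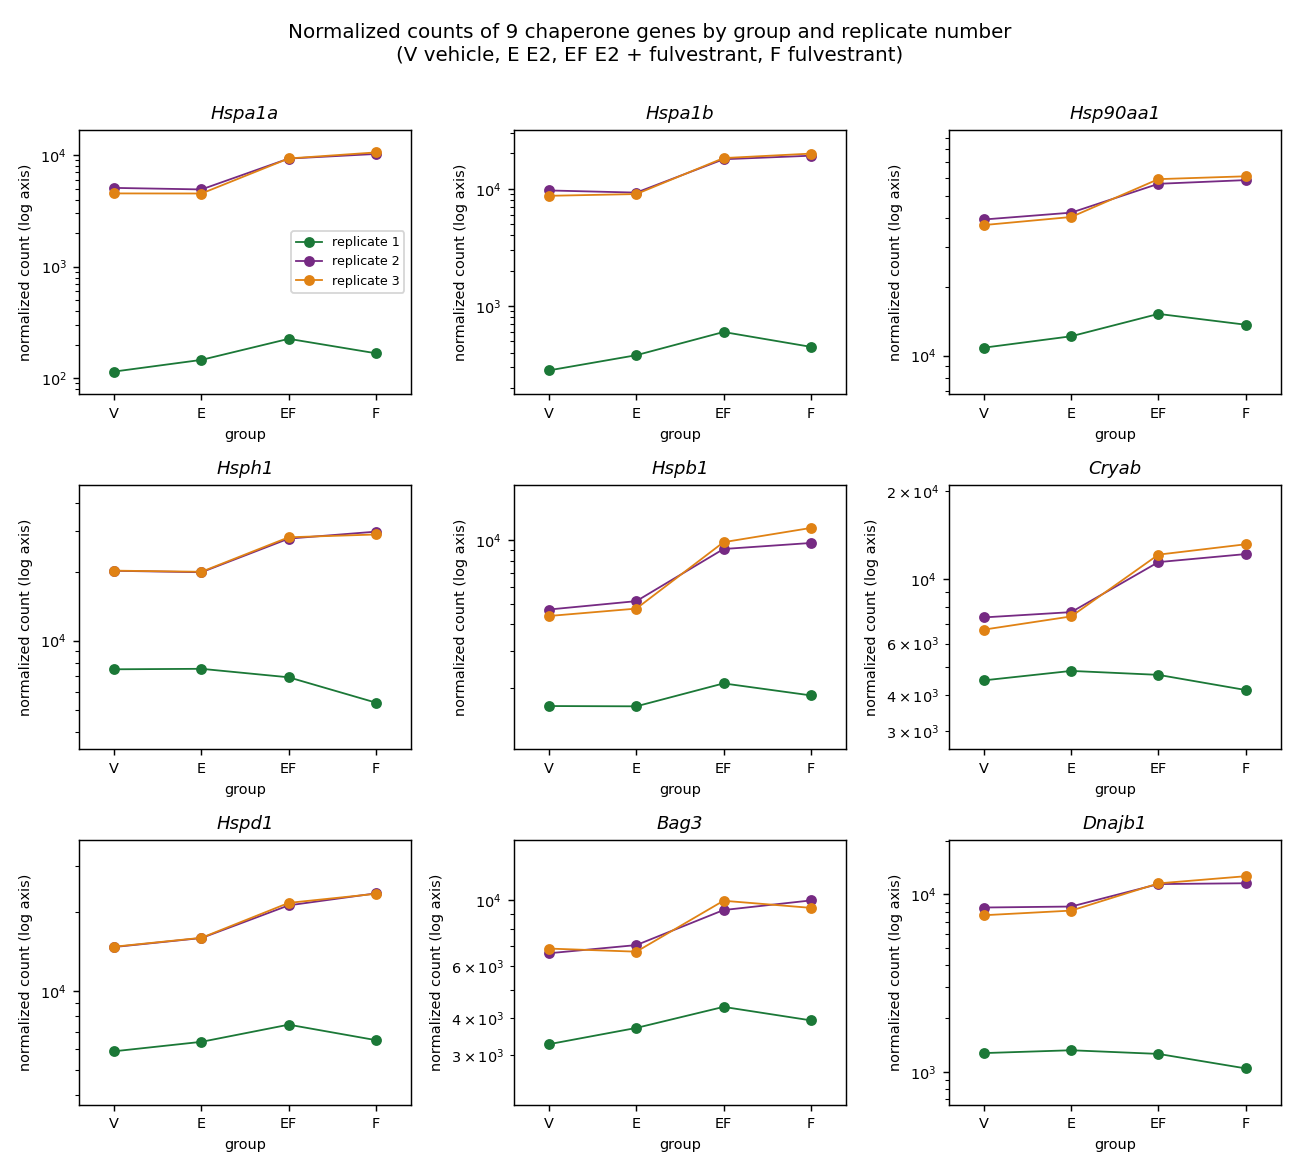
Normalized counts (log axis) of 9 chaperone genes in the 4 treatment groups, with V for vehicle, E for E2, EF for E2 plus fulvestrant and F for fulvestrant, and each line joining the samples that share a replicate number. The line of replicate 1 lies below those of replicates 2 and 3 in all 9 panels, and from E to EF the lines of replicates 2 and 3 go up in all 9, while that of replicate 1 goes down for Hsph1, Cryab and Dnajb1.

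Adding fulvestrant to E2 raised 9 of the 36 chaperone genes and lowered 0. They were the HSP90 gene Hsp90aa1, the HSP70 and HSP110 family genes Hspa1a, Hspa1b and Hspa4l, the small heat shock proteins Hspb1 and Hspb8, the chaperonin gene Hspd1, Dnajb4 and Bag3, with log2 fold changes from 0.27 to 0.87. Of all 13233 genes, 4.97% were called higher and 4.62% lower. Over the members the median log2 fold change was 0.16, against 0.01 over all genes, and 32 of the 36 members were above 0. The test was limma on log2(normalized count + 1) over all 12 samples with the replicate number as a block. Without the block 0 members were called, since the difference between replicate numbers then counts as error, and with replicate 2 or replicate 3 left out of all groups 0 were called as well. With replicate 1 left out, 14 were called, which included all 9.

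Fulvestrant without added E2 raised 11 members and lowered 0, against 6.76% and 5.69% of all genes. Of these, 8 were also called in the presence of E2, where 920 of the 1270 and 1648 genes called in the 2 comparisons were called in both in the same direction, and the comparison shares no sample with the one above. Hspa4, Hspe1 and Stip1 were called only here and Dnajb4 only with E2, but the difference between the comparisons, tested as an interaction of E2 and fulvestrant, was called for 0 members and 0 of all genes by limma (unadjusted p under 0.05 for 0 members and 501 genes). The median log2 fold change over the members was 0.20, against 0.01 over all genes, and 34 of 36 were above 0. Without the block 0 were called, with only vehicle and fulvestrant samples in the fit 4, with replicate 2 or replicate 3 left out 2, and with replicate 1 left out 17, which included all 11. The members' own per-replicate directions do not depend on the fit. With E2 present, 17 members were higher with fulvestrant in 3 of 3 pairs of the same number and 0 were lower in all 3, where 26.4% and 23.6% of all genes were so, and without E2 the numbers were 20 and 0 against 24.0% and 21.2%.

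**Figure D2:**
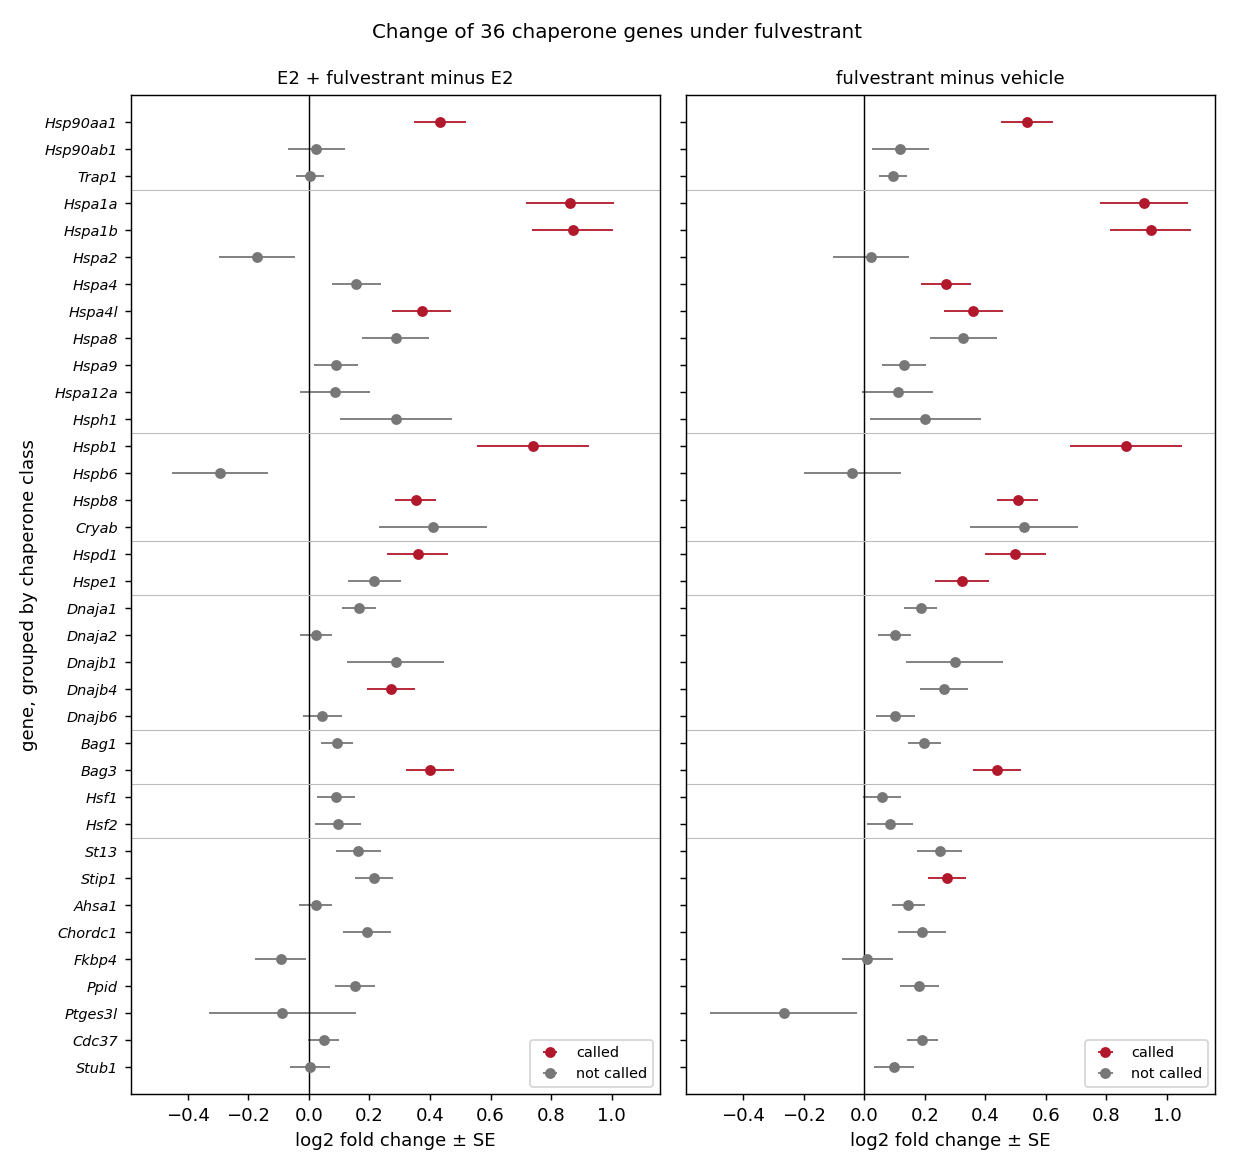
Log2 fold change with its SE for the 36 members, E2 plus fulvestrant against E2 on the left and fulvestrant against vehicle on the right, with members called by limma in red and horizontal lines between chaperone classes. All called members lie to the right of 0, between 0.27 and 0.95.

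In the HSP90 class 1 of the 3 genes was called, in both comparisons. Hsp90aa1 (chr12:110690605-110702728, minus strand), the inducible isoform, read 10833, 39415 and 37264 with vehicle, 12151, 42226 and 40418 with E2, 15224, 56469.9 and 59187 with E2 plus fulvestrant and 13652, 58609 and 60904 with fulvestrant. Within each number the samples with fulvestrant were above those without, and the log2 fold change was 0.43 ± 0.086 (adjusted p = 0.00892) with E2 and 0.54 ± 0.086 (adjusted p = 0.00224) without. Hsp90ab1, the constitutive isoform and the member with the highest level per kilobase of exon (17834 normalized counts per kb over all samples, against 9462 for Hsp90aa1), read 37444, 57896 and 55499 with vehicle, 39227, 61108 and 58776 with E2, 36574, 62826 and 64592 with E2 plus fulvestrant and 34884, 66201 and 66800.5 with fulvestrant. Its log2 fold changes were 0.025 ± 0.095 (adjusted p = 0.893) and 0.12 ± 0.095 (adjusted p = 0.438), and in replicate 1 the samples with fulvestrant were the lower ones. No test compared the isoforms with each other. The mitochondrial Trap1 changed by 0.0034 and 0.094 and was not called. Of the 100-base windows of the Hsp90aa1 transcript, 47.5% occur in other annotated genes, chiefly processed copies, so part of its reads may not have been counted for it.

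Of the 9 HSP70 and HSP110 genes, 3 rose with fulvestrant in the presence of E2 and 4 in its absence. Hspa1a changed by 0.86 ± 0.15 (adjusted p = 0.00391) with E2 and 0.92 ± 0.15 (adjusted p = 0.00217) without, and Hspa1b by 0.87 ± 0.13 (adjusted p = 0.00213) and 0.95 ± 0.13 (adjusted p = 0.00114). The rise was present at both basal levels: in replicates 1, 2 and 3 Hspa1a was 1.54, 1.89 and 2.06 times as high with fulvestrant in the presence of E2, and 1.45, 2.02 and 2.33 times in its absence. The values of the groups overlap when replicate numbers are ignored, because replicate 1 is low in all groups, but within replicates 2 and 3 every sample with fulvestrant exceeded every sample without.

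Hspa4l (chr3:40744495-40796103, plus strand), an HSP110 protein that acts as a nucleotide exchange factor, read 1908, 2809 and 2751 with vehicle, 1962, 2785 and 2693 with E2, 2193, 3735 and 3903 with E2 plus fulvestrant and 1964, 4088 and 3889 with fulvestrant. Its log2 fold changes were 0.37 ± 0.098 (adjusted p = 0.0316) and 0.36 ± 0.098 (adjusted p = 0.0299). Hspa4 (chr11:53259814-53300457, minus strand), its close relative, read 6559.6, 9308 and 10087 with vehicle, 6964, 10969 and 10049.9 with E2, 7119, 12117 and 12324 with E2 plus fulvestrant and 6668, 13155 and 12312 with fulvestrant, with 0.16 ± 0.082 (adjusted p = 0.246) and 0.27 ± 0.082 (adjusted p = 0.0464), the latter being close to both thresholds. In replicate 1 the samples of either gene moved little with fulvestrant.

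Hspa8, the constitutive HSP70 and the member of this class with the highest level per kilobase in the mean of all samples (in replicate 1 of every group Hspa9 was higher), read 15221, 37885 and 37803 with vehicle, 15915, 42920.1 and 41150.2 with E2, 17676, 52193 and 55304 with E2 plus fulvestrant and 14649, 53438 and 54996 with fulvestrant. Replicates 2 and 3 were higher with fulvestrant, whereas replicate 1 rose with E2 present and fell slightly without, and the log2 fold changes of 0.29 ± 0.11 (adjusted p = 0.119) and 0.33 ± 0.11 (adjusted p = 0.0683) were not called. Its level is uncertain in itself, since 63.4% of its transcript windows occur in other genes, mostly pseudogenes. Hsph1, an HSP110 protein of the cytosol, was not called over all samples (0.29 ± 0.18 (adjusted p = 0.344) and 0.20 ± 0.18 (adjusted p = 0.504)) and its replicates disagreed, as given further on. Hspa9, Hspa2 and Hspa12a had log2 fold changes between -0.17 and 0.13 in the 2 comparisons and were not called.

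Of the small heat shock proteins, which hold unfolded proteins without ATP, Hspb1 and Hspb8 rose in both comparisons. Hspb1 (chr5:135887919-135889563, plus strand), the mouse HSP27, read 1645, 4708 and 4387 with vehicle, 1640.3, 5157 and 4755 with E2, 2106, 9099 and 9800.5 with E2 plus fulvestrant and 1848, 9715 and 11441 with fulvestrant. Its log2 fold change was 0.74 ± 0.18 (adjusted p = 0.026) with E2 and 0.86 ± 0.18 (adjusted p = 0.0103) without, the largest after those of Hspa1a and Hspa1b. Hspb8 (chr5:116408491-116422864, minus strand), which forms a complex with Bag3 that directs misfolded proteins to autophagy, read 2656, 4478 and 4328 with vehicle, 2557, 5168 and 4803 with E2, 3275, 6384 and 6329.8 with E2 plus fulvestrant and 3234, 6556 and 6970.2 with fulvestrant. Its changes were 0.35 ± 0.068 (adjusted p = 0.0076) and 0.51 ± 0.068 (adjusted p = 0.000836), and every sample with fulvestrant exceeded the sample of the same number without it. For Hspb1, 42.7% of the transcript windows occur in other genes, chiefly a pseudogene.

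Cryab, which encodes alpha B-crystallin and has the highest level per kilobase of this class in the mean of all samples, though not in the groups with fulvestrant, where Hspb1 was higher, read 4489, 7382 and 6703 with vehicle, 4836, 7696 and 7439 with E2, 4688, 11426 and 12122 with E2 plus fulvestrant and 4159, 12176 and 13155 with fulvestrant. The 4 samples with fulvestrant from replicates 2 and 3 lay above the 4 without it, with no overlap, but replicate 1 did not rise, and the fitted changes of 0.41 ± 0.18 (adjusted p = 0.168) and 0.53 ± 0.18 (adjusted p = 0.0703) were not called. Hspb6, at 79.7 to 271 normalized counts, changed by -0.29 and -0.04 and was not called.

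The mitochondrial chaperonin is a barrel of Hspd1 (HSP60) closed by a lid of Hspe1 (HSP10), encoded by genes that share the bidirectional promoter shown above. Hspd1 (chr1:55077835-55088243, minus strand) read 5882, 14733 and 14775 with vehicle, 6393, 15945 and 15979 with E2, 7435, 21262 and 21731 with E2 plus fulvestrant and 6488, 23635 and 23538 with fulvestrant, with log2 fold changes of 0.36 ± 0.10 (adjusted p = 0.0417) and 0.50 ± 0.10 (adjusted p = 0.00791). Hspe1 (chr1:55088132-55091307, plus strand) read 1824, 3716 and 3413 with vehicle, 1846, 3863 and 3945 with E2, 2111, 4324 and 4825 with E2 plus fulvestrant and 1854, 4669.6 and 5228 with fulvestrant, with 0.22 ± 0.088 (adjusted p = 0.14) and 0.32 ± 0.088 (adjusted p = 0.0308). Both were higher with fulvestrant in 3 of 3 pairs in both comparisons, and Hspe1 was called only without E2. For Hspd1 26.9% and for Hspe1 22.4% of the transcript windows occur in other genes. The other mitochondrial folding and import genes listed were not called with E2 present (0 of 14), and without E2 1 was higher and 1 lower.

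Among the J-domain co-chaperones, Dnajb4 (chr3:152178511-152210302, minus strand) read 1548, 3230.2 and 3174 with vehicle, 1658, 3045 and 2964 with E2, 1663, 3923 and 4030.1 with E2 plus fulvestrant and 1686, 3980.2 and 4087 with fulvestrant. Its log2 fold changes were 0.27 ± 0.079 (adjusted p = 0.05) and 0.26 ± 0.079 (adjusted p = 0.0462), so that its call with E2 lay at the edge of the threshold and the same change without E2 missed the fold limit. Dnajb1, the highest of the class per kilobase in the mean of all samples but below Dnaja1 and Dnaja2 in replicate 1 of every group, read 1277, 8435 and 7631 with vehicle, 1325, 8542 and 8104 with E2, 1264, 11431 and 11533 with E2 plus fulvestrant and 1047, 11555 and 12658 with fulvestrant. Its replicates 2 and 3 were higher with fulvestrant and its replicate 1 lower, and 0.29 ± 0.16 (adjusted p = 0.278) and 0.30 ± 0.16 (adjusted p = 0.242) were not called. Dnaja1, Dnaja2 and Dnajb6 had log2 fold changes between 0.02 and 0.19 and were not called.

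Bag3 (chr7:128523616-128546981, plus strand), the BAG protein that couples HSP70 to autophagy and is itself heat-inducible, read 3273, 6636 and 6881 with vehicle, 3714, 7070.4 and 6717 with E2, 4374, 9284 and 9979 with E2 plus fulvestrant and 3938, 10003 and 9443 with fulvestrant. It rose in 3 of 3 pairs in both comparisons, by 0.40 ± 0.078 (adjusted p = 0.00808) and 0.44 ± 0.078 (adjusted p = 0.00413) on the log2 scale. Bag1, the other nucleotide exchange factor of this type, changed by 0.093 ± 0.053 (adjusted p = 0.293) and 0.20 ± 0.053 (adjusted p = 0.0288), below the fold threshold. Neither transcription factor gene was called. Hsf1 read 1583, 1659.9 and 1500.4 with vehicle, 1559, 1513 and 1574 with E2, 1504, 1746 and 1704 with E2 plus fulvestrant and 1566, 1644 and 1730.4 with fulvestrant, with groups that overlap in part, and changed by 0.089 ± 0.064 (adjusted p = 0.395) and 0.059 ± 0.064 (adjusted p = 0.577). Hsf2 changed by 0.096 and 0.085. These are RNA levels, and the activity of heat shock factor 1 is set largely at the protein, which was not measured here.

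Of the 9 co-chaperones that hand clients between HSP70 and HSP90 or tune HSP90, 0 were called with E2 present and 1 without. Stip1 (chr19:7020702-7039967, minus strand), the adaptor that holds HSP70 and HSP90 together, read 2796, 6402 and 6300.4 with vehicle, 3155, 7039 and 6694 with E2, 3417, 7923 and 8586 with E2 plus fulvestrant and 3050, 8099 and 8068 with fulvestrant. Its log2 fold changes were 0.21 ± 0.064 (adjusted p = 0.0521) and 0.27 ± 0.064 (adjusted p = 0.0157), and its samples with fulvestrant were the higher ones in 3 of 3 pairs both times. St13 and Cdc37 had adjusted p-values under 0.05 without E2 (0.25 ± 0.074 (adjusted p = 0.0445) and 0.19 ± 0.051 (adjusted p = 0.0276)) at folds below 1.2. Fkbp4, an immunophilin that binds steroid receptor complexes, changed by -0.093 ± 0.085 (adjusted p = 0.517) and 0.011 ± 0.085 (adjusted p = 0.951). Ahsa1, Chordc1, Ppid, Ptges3l and Stub1 were not called in either comparison. Ptges3l was the lowest member, at 36.9 to 67.3 normalized counts, and 28.7% of its exon sequence lies in exons of an overlapping gene on the same strand.

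E2 by itself changed 0 members against vehicle by limma, and 10 genes of all 13233 (0.0756%). At an unadjusted p under 0.05 there were 3 members and 1340 genes. The log2 fold changes of the members ran from -0.15 to 0.15 with a median SE of 0.081. Their median was 0.08, against 0.01 for all genes, 30 of the 36 were above 0, and 18 were higher in 3 of 3 pairs and 0 lower (21.7% and 17.3% of all genes). Leaving out a replicate number or a sample moved that median to between 0.034 and 0.12 and the genes called to between 0 and 59. The E2 samples serve as the controls of the first fulvestrant comparison and the vehicle samples as those of the second, so these values are not independent of the changes above. Between E2 plus fulvestrant and fulvestrant 0 members were called (0 at an unadjusted p under 0.05, against 255 genes), with a median log2 fold change of 0.01.

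**Figure D3:**
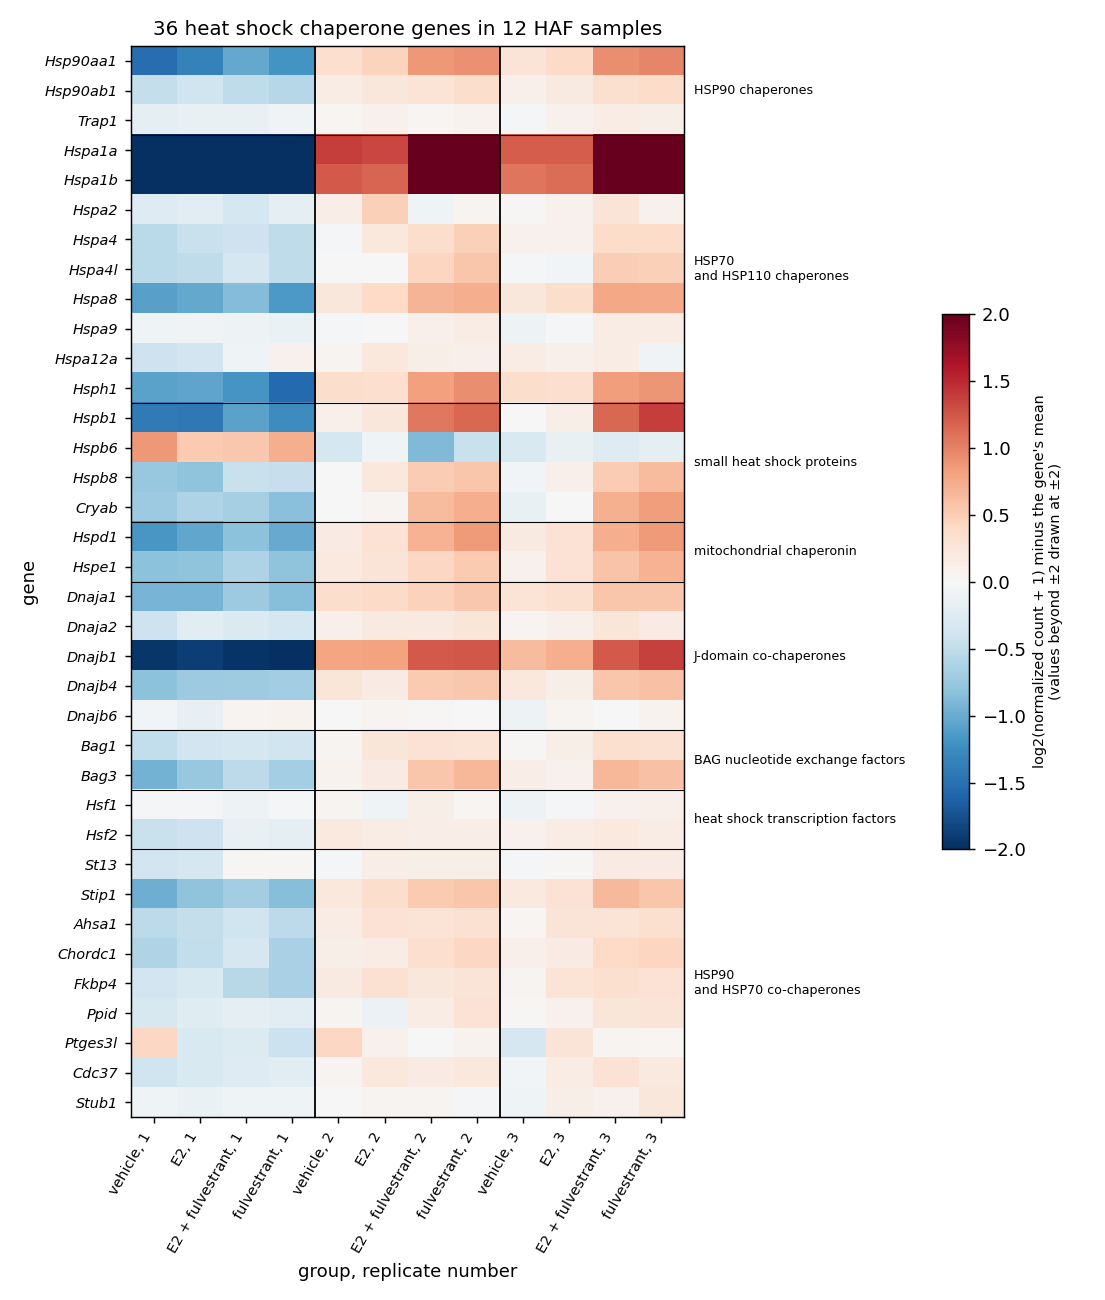
Log2(normalized count + 1) of the 36 members minus each gene's mean over the 12 samples, with samples ordered by replicate number and then by group, genes by chaperone class, and the colour scale ending at 2 in either direction. The columns of replicate 1 are blue for most members, those of Hspb6 are red, and within replicates 2 and 3 the 2 columns with fulvestrant are redder than the 2 without for Hsp90aa1, Hspa1a, Hspa1b, Hsph1, Hspb1, Cryab and Dnajb1.

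Whether fulvestrant acted alike in replicate 1 and in replicates 2 and 3 was tested with a term for that difference in the blocked fit, over the samples with and without E2 together. This test was chosen after the data had been seen, because replicate 1 stood apart. It sets a single replicate number against the other 2, so its p-values measure the spread among samples within these numbers and do not extend to further replicates. The signed log2 change with fulvestrant was higher in replicates 2 and 3 for 8 members and lower for 2, against 3.45% and 3.56% of all genes (limma adjusted p under 0.05). The 8 were Hsph1 at 0.82 ± 0.11 (adjusted p = 0.00119) on the log2 scale, Cryab at 0.82 ± 0.098 (adjusted p = 0.000413), Hspb1 at 0.81 ± 0.12 (adjusted p = 0.00198), Dnajb1 at 0.71 ± 0.11 (adjusted p = 0.00194), Hspa4l at 0.40 ± 0.08 (adjusted p = 0.011), Hspd1 at 0.37 ± 0.095 (adjusted p = 0.0363), Fkbp4 at 0.33 ± 0.076 (adjusted p = 0.0219) and Dnajb4 at 0.30 ± 0.073 (adjusted p = 0.0276). Of these, Fkbp4 was lower with fulvestrant in replicate 1 (-0.26 with E2 and -0.27 without) and between -0.075 and 0.23 in replicates 2 and 3. The 2 with the lower change were Hspa12a (-0.46 ± 0.10 (adjusted p = 0.0178)) and St13 (-0.27 ± 0.073 (adjusted p = 0.0491)). The count of 10 members fell to 4 without E2 replicate 1, without fulvestrant replicate 1, without replicate 3 or without the variance trend, and to 6 without vehicle replicate 1, E2 plus fulvestrant replicate 3 or fulvestrant replicate 2. For Hspa1a and Hspa1b the term was 0.47 ± 0.16 (adjusted p = 0.123) and 0.38 ± 0.16 (adjusted p = 0.208), which did not pass.

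Hsph1 shows the pattern in its raw levels. It read 7505, 20169 and 20198 with vehicle, 7541, 19875 and 19969.7 with E2, 6925, 27858 and 28234 with E2 plus fulvestrant and 5370, 29872 and 29030.5 with fulvestrant. In the presence of E2 its level with fulvestrant was 0.918, 1.4 and 1.41 times that without in replicates 1, 2 and 3, and in the absence of E2 0.716, 1.48 and 1.44 times. It thus fell in replicate 1 and rose in replicates 2 and 3, both times. Cryab behaved likewise, at 0.969, 1.48 and 1.63 times and 0.927, 1.65 and 1.96 times, and so did Dnajb1, at 0.954, 1.34 and 1.42 and 0.82, 1.4 and 1.7 times.

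With replicate 1 left out, Hspa8, Hsph1, Cryab, Dnajb1 and Stip1 were called in addition to the 9 members with E2 present (6.75% of all genes higher, 5.43% lower), and Hspa8, Hsph1, Cryab, Dnajb1, Dnajb4 and Chordc1 in addition to the 11 without E2 (10.1% and 7.41%). In replicates 2 and 3 alone the 4 largest changes without E2 were 1.21 ± 0.083 (adjusted p = 9.23e-06) for Hspb1, 1.12 ± 0.064 for Hspa1a, 1.09 ± 0.066 for Hspa1b and 0.85 ± 0.069 for Cryab. With E2 the same 4 genes led, at 0.98 for Hspa1a, 0.98 for Hspa1b, 0.93 for Hspb1 and 0.64 for Cryab. Across the 36 members the vehicle difference and the change from E2 to E2 plus fulvestrant had a Pearson r of 0.81 and a Spearman rho of 0.82, against 0.21 and 0.24 over all genes. The 2 measures share no sample but come from the same genes, and members with shared sequence, such as Hspa1a and Hspa1b, are not separate points. In replicate 1 the values over the members were 0.62 and 0.38, and no value over all genes was computed there.

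**Figure D4:**
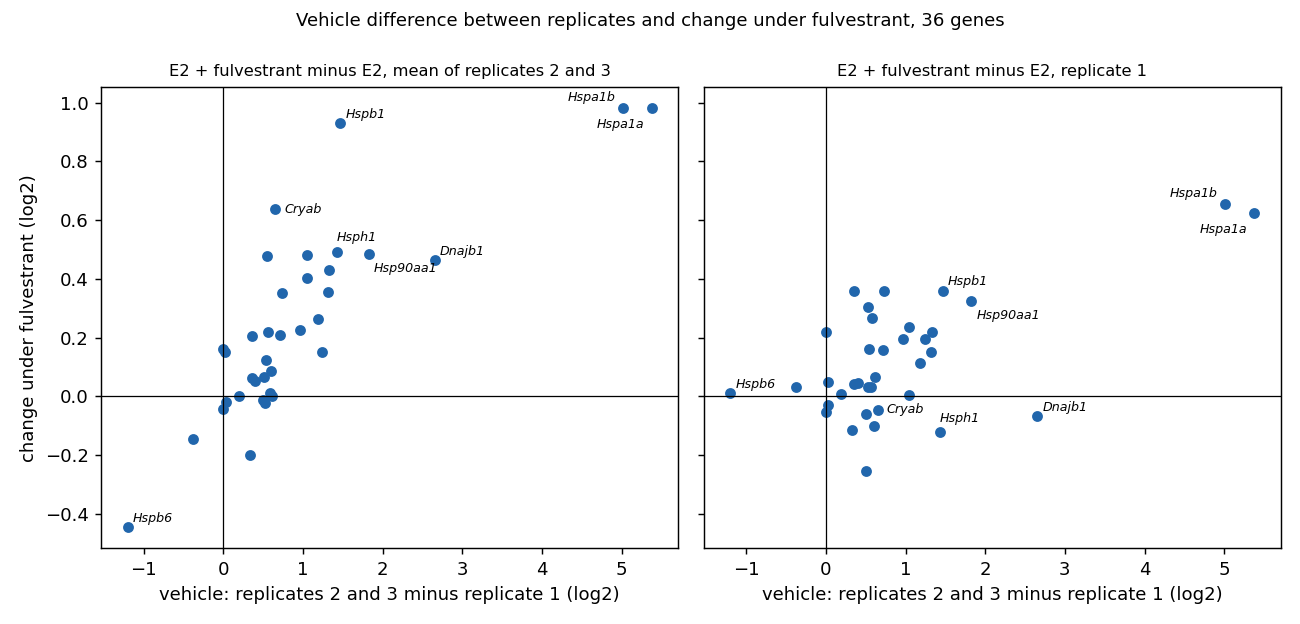
Each point is 1 of 36 members. The horizontal axis is the log2 difference between the mean of replicates 2 and 3 and replicate 1 under vehicle, and the vertical axis is the log2 change from E2 to E2 plus fulvestrant in replicates 2 and 3 (left) or in replicate 1 (right). On the left the points climb from Hspb6 at the lower left to Hspa1a and Hspa1b at the upper right, and on the right Hsph1, Dnajb1 and Cryab lie below 0.

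Other protein quality control genes were counted from lists of the same kind. Of the 8 subunits of the cytosolic chaperonin CCT, which folds actin and tubulin, 0 were called with fulvestrant in the presence of E2 and 2 rose in its absence (Cct6a at 0.32 ± 0.06 (adjusted p = 0.00553) and Cct7 at 0.28 ± 0.068 (adjusted p = 0.019)), with all 8 above 0 in both. Of 31 proteasome subunits, 0 were called with E2 present (25 above 0) and 6 rose without (31 above 0). Of 6 prefoldin subunits 0 were called in either. Of the ER chaperones, which serve secreted proteins, 0 of 18 were called in either comparison. The log2 fold change was above 0 for 0 of 18 with E2 present (median -0.12) and for 10 of 18 without (median 0.05). Hspa5, the ER HSP70, changed by -0.033 and 0.12, and Hsp90b1, the ER HSP90, by -0.15 and -0.076. The difference between the ER and the cytosolic lists was not tested.

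Among 31 other cytosolic chaperones and co-chaperones, 1 was called with E2 present and 5 without. Fkbp5, an HSP90 co-chaperone and a known target of the glucocorticoid, androgen and progesterone receptors, rose most, and its replicates ran against those of the chaperones. It read 307, 956 and 941 with vehicle, 365, 968 and 914 with E2, 9832, 4619 and 4449 with E2 plus fulvestrant and 9974, 4136 and 3957 with fulvestrant, so that replicate 1 was the highest sample with fulvestrant and the lowest without. Its fitted changes were 3.09 ± 0.55 (adjusted p = 0.00507) and 3.07 ± 0.55 (adjusted p = 0.0044). The immediate early genes rose in the same comparisons as the chaperones, 10 of 16 with E2 present (median log2 fold change 0.49) and 11 of 16 without (0.59), and 0 of 16 with E2 against vehicle. Fosl1 (1.43 ± 0.19 (adjusted p = 0.000889)), Dusp1 (1.34 ± 0.27 (adjusted p = 0.0097)), Atf3 (1.06 ± 0.21 (adjusted p = 0.00902)) and Jun (0.81 ± 0.20 (adjusted p = 0.0265)) changed most with E2 present. The signed log2 change with fulvestrant was lower in replicates 2 and 3 than in replicate 1 for 7 of the 16 and higher for 0, Jun, Atf3 and Dusp1 among the 7 (-0.91, -0.86 and -1.20), the opposite sign to that of Hsph1, Cryab and Dnajb1. The part of these genes, and of any stress of handling, in the chaperone changes was not tested.

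Set against the promoter letters, 7 of the 11 members called in at least 1 fulvestrant comparison and having a window held GAANNTTC (Bag3, Hspa1a, Hspa1b, Hspb1, Hspb8, Hspd1 and Hspe1), as did 7 of the 16 tested members with a window that were not called (Chordc1, Dnaja1, Dnajb6, Fkbp4, Hspb6, Hsph1 and Stub1). The difference between these shares was not tested. Among the 7 called, Hspd1 and Hspe1 hold the same site, and the windows of Hspa1a and Hspa1b are near copies. These genes are thus not all separate promoters. Hspb6, whose level ran opposite to the others between replicates, and Dnajb6 and Stub1, whose changes were among the smallest, held the letters too.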

How the data were processed

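RNA-Seq of 12 HAF samples was analysed. Per the labels and the methods of the study, the authors used Trimmomatic 0.39 for trimming, SortMeRNA to take out ribosomal RNA, STAR 2.5.2 for alignment (mm10), HTSeq 0.13.5 for stranded gene counts, a floor of 10 on counts and DESeq2 1.37 for normalization. They also name batch adjustment with ComBat_seq and removeBatchEffect. The deposited signal is a normalized count per gene and sample: 100.0% of values were whole reads (tolerance 0.001) after multiplication by a single factor per sample, the fewest being 10 reads. Batch-adjusted values were not analysed here.

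Log2(normalized count + 1) was fitted for all 13233 genes with limma 3.58.1 (eBayes, variance trend) in R 4.3.3, all 12 samples in 1 fit with the replicate number as a block (6 residual degrees of freedom). Fold changes are on this scale. The Benjamini-Hochberg adjustment ran over all genes tested, and calls needed an adjusted p under 0.05 and a fold over 1.2, or the adjusted p alone for the interaction and the test by replicate. The block follows from the replicate numbers in the labels. With the group means removed, samples of the same number had correlations of 0.63 to 0.92 across genes in 18 pairs. Samples numbered 2 and 3 in different groups had 0.63 to 0.79. The ranges overlap, so these correlations do not show that number 2 pairs with 2 and number 3 with 3. The members and lists were chosen with earlier results of these data known, and the 2 comparisons by replicate number and the members singled out by them were added after the data had been seen. Values of every sample are given for members called in a fulvestrant comparison, for the highest member per kilobase of each class (mean of all samples) and for Hsph1. Among other genes, the treatment check, Fkbp5, the ER paralogs and at most the 4 called genes that changed most in each list are named.

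Counts were simulated for 13233 genes, with 200 changed between E2 and E2 plus fulvestrant. Calls in the right direction were made for 86.0% of 1.5-fold, 95.8% of 2-fold and 100% of 3-fold changes. Unchanged genes made up 4.06% of the calls, and a simulation without any change gave 0 calls. These rates describe the simulated counts alone. In the measured samples the change with fulvestrant differed between replicates for some members, and whether the rates hold there was not tested. Positions and exon lengths are from GENCODE (GRCm38, which is mm10), matched for 13149 identifiers, and promoter sequences from RefSeq (GRCm38.p6). Shared sequence is the share of 100-base windows of the longest coding transcript that occur in transcripts of other genes. Python 3.11.15, pandas 2.3.3 and matplotlib 3.10.9 were used.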

Additional observations from a re-analysis of the deposited data

How the results depend on the processing

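The direction of every member called with fulvestrant held in all 500 recomputed values (366 kept the call, 134 lost it, 0 reversed). Without the replicate block 0 members were called in either fulvestrant comparison, against 9 with E2 present and 11 without, and all genes called fell from 1270 to 69 and from 1648 to 72. For E2 against vehicle, E2 plus fulvestrant against fulvestrant and the interaction, 0 members were called with or without the block. With E2 present, 5 were called without the variance trend. Without E2, 4 were called with only the 2 groups in the fit and 7 after quantile normalization. Leaving out a replicate number or a single sample gave 0 to 14 members with E2 present and 2 to 17 without. The lowest values came from leaving out replicate 2 or replicate 3 of all groups and the highest from leaving out replicate 1, and, without E2, also from leaving out fulvestrant replicate 1 alone (17). With E2 present, 5, 3, 5 and 3 were called without E2 replicate 2, E2 replicate 3, E2 plus fulvestrant replicate 2 and E2 plus fulvestrant replicate 3. Without E2, 7 and 6 were called without vehicle replicates 2 and 3, and 6 each without fulvestrant replicates 2 and 3. The cause of these differences was not tested, though each leaves fewer samples. The median over the members stayed between 0.14 and 0.19 with E2 present and between 0.15 and 0.25 without. The test by replicate, with 10 members, gave 4 without the variance trend and 4 to 12 with a replicate or sample left out (4 without replicate 3, E2 replicate 1 or fulvestrant replicate 1, and 6 without vehicle replicate 1, E2 plus fulvestrant replicate 3 or fulvestrant replicate 2). These recomputations were chosen after seeing the data. Of 200 values for these 10 members over 20 recomputations, 148 kept the call, 52 lost it and 0 reversed. Hsph1, Hspb1, Cryab and Dnajb1 kept it in all 20, while St13 lost it in 15, Hspd1 in 11 and Dnajb4 in 10. A planned edgeR test on recovered reads was not run. For E2 against vehicle, the 10 genes called became 59 without replicate 1, 0 without replicate 2 or replicate 3, 4 and 2 without E2 replicates 2 and 3, 18 without fulvestrant replicate 1, 57 with only these 2 groups in the fit, 17 with replicate 1 as the only block, 3 without the variance trend and 1 without the block. The members' median there was 0.048 after quantile normalization and 0.034 without vehicle replicate 3. Ptges3l, the member with the fewest reads, had the largest standard error.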
